A study of Danio rerio with 96 samples.

Results

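In the first batch of each pool size, called batch 1 in the sample titles, the zebrafish samples numbered 5 to 8 were compared with those numbered 1 to 4. The comparison used 32 of the 96 samples of the study, 16 numbered 5 to 8 and 16 numbered 1 to 4, chosen by the number in the sample title and not by any measured value. Each of the 4 pool sizes gave 1 such batch of 8 samples: pool1 (1 embryo per sample), pool5 (5 embryos), pool10 (10 embryos) and pool20 (20 embryos). All 32 samples were whole embryos at 120 hours post fertilization (hpf) that had been kept for 5 days in 0.1% dimethyl sulfoxide (DMSO), the solvent used as vehicle control in chemical exposures, and no sample received another chemical. The pool1 and pool5 batches were exposed from 12 to 17 December and extracted on 17 December. The pool10 batch was exposed from 2 to 7 November and the pool20 batch from 4 to 9 November, and both were extracted on 23 November. Samples 5 to 8 occupied library plate rows E to H and samples 1 to 4 rows A to D in all 12 batches of the study, so that sample number and plate row cannot be told apart. Nothing in the labels tells if samples within a batch stem from different dishes or parents, so a p-value given here is set against a spread that may be technical. The question whether sample numbers differ is not one the study posed. It was raised by earlier results of the same data, and its calls describe these samples.

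A zebrafish larva at this stage has hatched, has working heart, gut, liver and nervous system, and still carries or has just used up its yolk. A sample of 1 embryo holds the RNA of 1 individual, while a pool averages over its members, so that differences between individuals are diluted in a larger pool and influences common to all embryos of a pool are not. Counts were made with TempO-Seq, where 2 short detector probes bind next to each other on a target RNA, are joined by ligation, and are then amplified and sequenced. Each row of the deposited table is 1 probe target. No gene or probe name is attached to the rows, and each is therefore called a feature and given its row number, counted from 1. For the same reason no gene group can be matched, no tissue or cell type marker could be checked, and no sequence can be shown.

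The 32 libraries held between 3336934 and 5870280 counts, with a median of 4607187. A count of 0 allows a level of up to 3 counts, which equalled 0.899 CPM (counts rescaled so that every library has the same total) in the smallest library and 0.511 CPM in the largest. Between 2494 and 3105 features had at least 5 counts. In none of the 4 batches did total counts, the share of the 10 most abundant features or the number of detected features differ between samples 5 to 8 and samples 1 to 4 at an exact permutation p under 0.05; the smallest p that 4 against 4 samples allow is 0.0286. The nearest was the number of detected features in pool10, at 3035 ± 25.7 in samples 5 to 8 and 3083 ± 16.0 in samples 1 to 4 (SD, n = 4 each; exact two-sided permutation p = 0.0571, adjusted over the 4 batches 0.229).

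Over the 32 samples, with pool size as a block, 559 features were higher and 489 were lower in samples 5 to 8 than in samples 1 to 4. These 1048 calls are 34.7% of the 3018 features tested (edgeR's quasi-likelihood F test, Benjamini-Hochberg adjusted p under 0.05 over all features tested). The fit gives each feature a common spread for all pool sizes. Spread was not alike, with a coefficient of variation of 52.4% in samples 5 to 8 of pool1 and 14.5% in those of pool20. Its p-values and standard errors are thus set against a spread averaged over unlike batches. With limma's voom and quality weights by batch and sample set, 674 features were called, 568 of them among the 1048. Most of the differences were small: the median absolute log2 fold change over all features tested was 0.33, and 119 of the called features differed by more than 2-fold. The fitted log2 fold changes of samples 5 to 8 over 1 to 4 ran from -2.18 to 1.91. The difference had the same sign in all 4 pool sizes for 797 of the 1048 called features (76%), against 1180 of all 3018 tested (39.1%). The features were called on these same samples, which favours a shared sign, so the higher share is not a separate result. No single library moved the number of calls by more than 1.5 times, which ran from 914 to 1079 when each of the 32 was left out in turn. Leaving out a whole batch did so for 2 of the 4: 566 features were called without pool1 and 552 without pool5, against 953 without pool10 and 1033 without pool20.

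Feature 2294 had the smallest adjusted p among the features named by size of change. In pool1 it had 142, 232, 107 and 148 CPM in samples 5, 6, 7 and 8, and 364, 400, 397 and 453 CPM in samples 1, 2, 3 and 4. In pool5 it had 166, 117, 136 and 124 CPM in samples 5 to 8, against 567, 479, 536 and 518 CPM in samples 1 to 4. Samples 5 to 8 lay below all of samples 1 to 4 in both batches, with a gap wider than the range of either set. In pool10 the levels were 130, 111, 164 and 112 CPM in samples 5 to 8, against 462, 695, 497 and 332 CPM in samples 1 to 4. In pool20 they were 163, 168, 172 and 152 CPM in samples 5 to 8, against 427, 363, 191 and 231 CPM in samples 1 to 4. The sets again did not overlap, although in pool20 the distance between the highest of samples 5 to 8 and the lowest of samples 1 to 4 was narrow. The level in samples 5 to 8 was much alike in the 4 batches, with means of 157 ± 52.9, 136 ± 21.5, 129 ± 25 and 164 ± 8.71 CPM, and the means of samples 1 to 4 were 404 ± 36.8, 525 ± 36.6, 496 ± 150.2 and 303 ± 110.4 CPM (SD, n = 4 each, pool1 to pool20). Feature 2294 was 2.89-fold lower over the 32 samples (log2 fold change -1.53 ± 0.14, standard error; edgeR adjusted p = 2.7e-09), and 2.56-fold, 3.81-fold, 3.78-fold and 1.83-fold lower in pool1, pool5, pool10 and pool20.

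Features 622 and 2197 behaved likewise in the larger pools. Feature 622 had 11.9, 6.05, 10.6 and 6.40 CPM in samples 5 to 8 of pool10, against 39.5, 69.7, 40.7 and 28.0 CPM in samples 1 to 4. In pool20 it had 11.4, 8.74, 11.2 and 6.99 CPM in samples 5 to 8, against 42.3, 21.8, 13.2 and 12.2 CPM in samples 1 to 4. The sets were separate in pool5, pool10 and pool20. In pool1, sample 6 at 14.2 CPM lay above sample 1 at 11.9 CPM. Over the 32 samples feature 622 had a log2 fold change of -1.94 ± 0.28 (edgeR adjusted p = 3.0e-05). For feature 2197 the sets were separate in all 4 batches. In pool1 the distance was small, with 7.09 CPM in sample 6 against 8.14 CPM in sample 2. Feature 2197 was not called in pool1 alone (edgeR adjusted p = 0.341) or in pool20 alone (edgeR adjusted p = 0.256). In pool10 it had 4.39, 6.63, 4.37 and 4.39 CPM in samples 5 to 8, against 16.8, 28.6, 19.9 and 22.1 CPM in samples 1 to 4. Its log2 fold change over the 32 samples was -1.56 ± 0.24 (edgeR adjusted p = 4.3e-05).

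Feature 966 showed a difference that shrank from pool1 to pool20. Exposure dates also differed between pool1 or pool5 and the larger pools, so pool size and date cannot be told apart. In pool1 it had 31.1, 61.3, 30.1 and 5.51 CPM in samples 5 to 8, against 167, 337, 204 and 431 CPM in samples 1 to 4. In pool5 it had 92.2, 9.05, 43.4 and 26 CPM in samples 5 to 8, against 254, 154, 180 and 288 CPM in samples 1 to 4. Samples 1 to 4 were higher without overlap in both. In pool10 the levels were 14.4, 9.22, 12.4 and 8.05 CPM in samples 5 to 8, against 28.6, 21, 26 and 26.8 CPM in samples 1 to 4, again separate. In pool20 they were 18.5, 18.2, 23.0 and 11.1 CPM in samples 5 to 8, against 22.9, 29.2, 24.0 and 23.1 CPM in samples 1 to 4, where sample 7 just passed sample 1. The log2 fold changes of feature 966 were -3.15 ± 0.57, -2.34 ± 0.56, -1.2 ± 0.21 and -0.46 ± 0.19 in pool1, pool5, pool10 and pool20 (standard error), and these differed between pool sizes (edgeR's F test on the pool size by sample set terms, adjusted p = 0.0222). Features 1714, 813, 436 and 1998, also among the 8 features with the largest falls, were lower by 2.40-fold to 2.81-fold over the 32 samples. In pool1 their falls ran from 4.53-fold for feature 436 to 11.7-fold for feature 1714. Those in pool20 ran from 1.02-fold for feature 1998 to 1.37-fold for feature 1714.

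Among the 8 features with the largest rises, feature 1408 was the most abundant, and its difference also shrank from pool1 to pool20. In pool1 it had 3858, 2786, 4816 and 6705 CPM in samples 5 to 8, against 820, 311, 346 and 286 CPM in samples 1 to 4. In pool5 it had 1222, 7629, 2839 and 3728 CPM in samples 5 to 8, against 442, 653, 1086 and 370 CPM in samples 1 to 4. No sample of 5 to 8 fell as low as any of 1 to 4, but sample 6 of pool5 stood far above the other 3 of its set. In pool10 the levels were 2217, 2448, 1991 and 2909 CPM in samples 5 to 8, against 1622, 1808, 1572 and 1800 CPM in samples 1 to 4. In pool20 they were 1742, 2106, 2033 and 2321 CPM in samples 5 to 8, against 1879, 1550, 1329 and 2003 CPM in samples 1 to 4, and there the sets overlapped. Feature 1408 was 10.3-fold higher in pool1, 6.14-fold in pool5, 1.43-fold in pool10 and 1.23-fold in pool20, and 3.23-fold over the 32 samples (log2 fold change 1.69 ± 0.33, standard error; edgeR adjusted p = 3.5e-04).

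**Figure D1:**
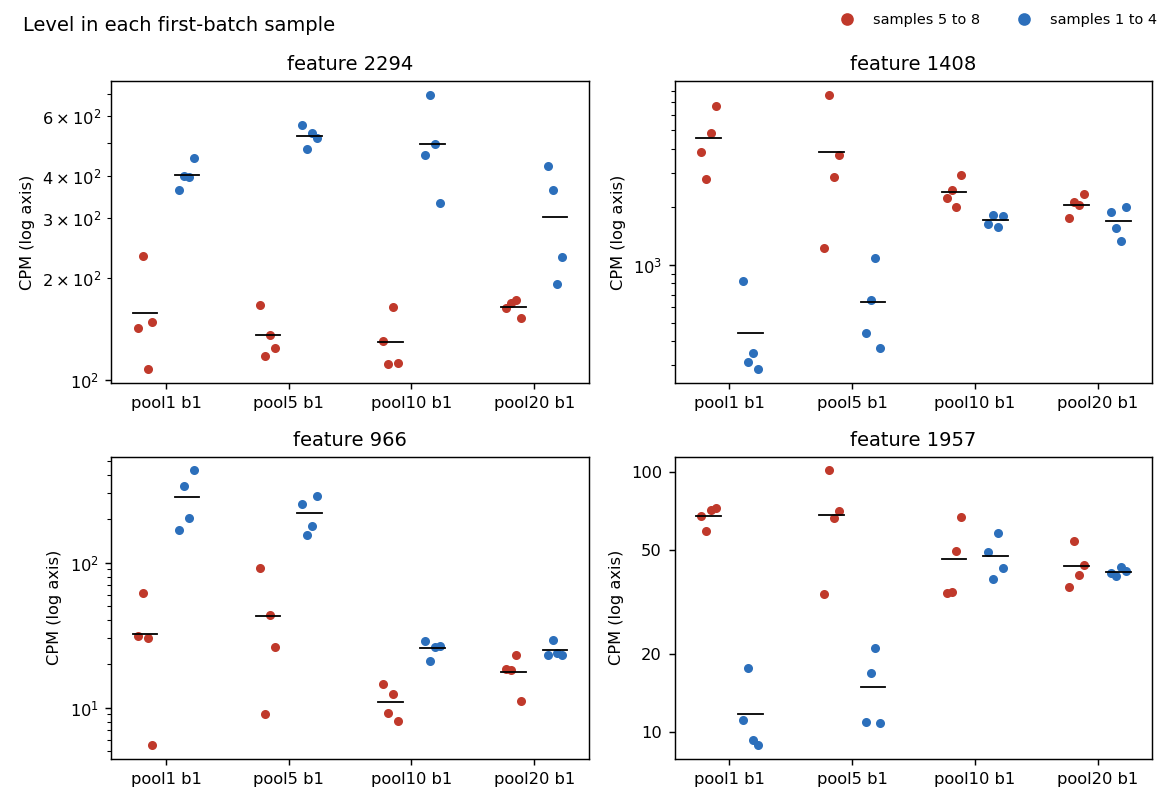
Level of features 2294, 1408, 966 and 1957 in each of the 32 samples of the first batches, in CPM on a log axis, with samples 5 to 8 in red to the left of samples 1 to 4 in blue and a bar at the mean of each set of 4. Feature 2294 was lower in samples 5 to 8 in all 4 batches, and the difference of feature 966 shrank from pool1 to pool20. Feature 1957 differed in pool1 and pool5 with overlapping sets in pool10 and pool20.

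Feature 1448 had the largest rise over the 32 samples. It had 114, 64.8, 95.2 and 147 CPM in samples 5 to 8 of pool1, against 11.6, 2.71, 17.4 and 9.41 CPM in samples 1 to 4. In pool20 it had 10.7, 29.8, 20.3 and 37.5 CPM in samples 5 to 8, against 24.0, 12.8, 8.96 and 16.2 CPM in samples 1 to 4. The pool1 sets were far apart and the pool20 sets overlapped. The log2 fold change over the 32 samples was 1.91 ± 0.34 (standard error; edgeR adjusted p = 1.6e-04). The other 6 of the 8 features with the largest rises, features 1406, 1364, 847, 100, 707 and 2845, were 2.54-fold to 3.10-fold higher over the 32 samples. In pool1 their fold changes ran from 3.86 for feature 2845 to 9.38 for feature 1406, and in pool20 from 1.16 for feature 1406 to 1.79 for feature 1364. All 16 of these features were chosen for their size of change and for the same sign in 4 pool sizes, so that their shared direction is not a separate result.

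**Figure D2:**
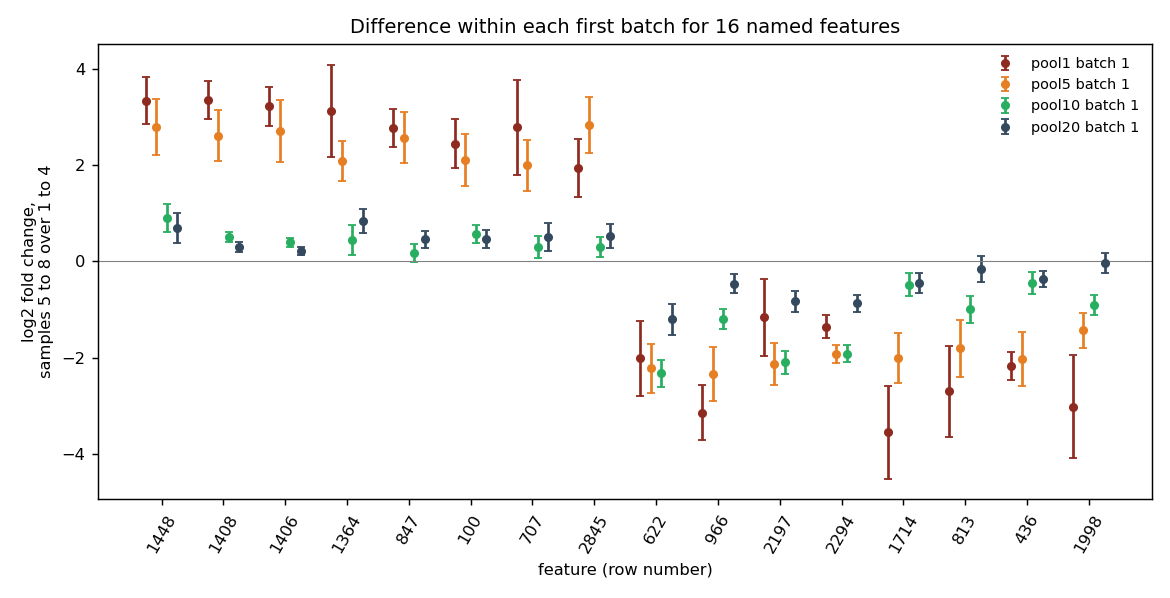
Log2 fold change of samples 5 to 8 over samples 1 to 4 within each first batch for the 8 features with the largest rises (left) and the 8 with the largest falls (right) over the 32 samples. Points are fitted values and bars are 1 standard error. The rises were near 2 to 3 in pool1 and pool5 and under 1 in pool10 and pool20, while features 622, 2197 and 2294 fell by as much in pool10 as in pool5.

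Of all 3018 features tested, 13 had samples 5 to 8 separate from samples 1 to 4 in the same direction in all 4 first batches. Features 130, 318, 562, 569, 2197, 2200, 2294 and 2945 were lower and features 326, 1183, 1681, 2698 and 2959 were higher. All 13 were called over the 32 samples. Apart from features 2197 and 2294 they were picked out by this lack of overlap after their values were seen. Feature 562 had 60.8, 64.8, 55.7 and 66.4 CPM in samples 5 to 8 of pool1, against 124, 120, 144 and 167 CPM in samples 1 to 4. In pool20 feature 562 had 82.5, 78.4, 80.6 and 84.8 CPM in samples 5 to 8, against 119, 108, 102 and 118 CPM in samples 1 to 4. Levels varied little within either set of pool20 and within samples 5 to 8 of pool1, while samples 1 to 4 of pool1 ran from 120 to 167 CPM. The distance between the sets was narrower in pool20 than in pool1. Samples 5 to 8 spread more in pool5, from 38.9 to 70.8 CPM. In pool10 feature 562 ran from 56.8 to 89.7 CPM in samples 5 to 8, against 99.1 CPM in the lowest of samples 1 to 4. Its log2 fold changes were -1.16, -1.14, -0.73 and -0.44 in pool1, pool5, pool10 and pool20, and -0.87 ± 0.10 over the 32 samples (edgeR adjusted p = 2.4e-07). Separation in the same direction in at least 3 of the 4 batches was seen in 125 features, all of them called, which is 11.9% of the 1048 called and 4.14% of the 3018 tested. Separation was read on the same samples that made the calls and favours a call. That all of these features were called is therefore not a separate result.

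Feature 569 was a moderately changed example among the lower features. In pool5 it had 449, 357, 469 and 488 CPM in samples 5 to 8, against 710, 600, 652 and 720 CPM in samples 1 to 4. In pool10 it had 384, 412, 399 and 402 CPM in samples 5 to 8, against 533, 561, 623 and 540 CPM in samples 1 to 4. Samples 5 to 8 of pool10 spanned a far smaller range than the step between the sets. The sets nearly touched in pool1, at 436 CPM in sample 6 against 448 CPM in sample 3. They did so too in pool20, at 462 CPM in sample 8 against 474 CPM in sample 4. The log2 fold change of feature 569 was -0.50 ± 0.071 over the 32 samples (edgeR adjusted p = 2.8e-05). Feature 1183 had the largest rise of the 5 higher features: in pool1 it had 1315, 802, 1566 and 1856 CPM in samples 5 to 8, against 428, 494, 493 and 422 CPM in samples 1 to 4. In pool20 feature 1183 had 248, 278, 246 and 264 CPM in samples 5 to 8, against 241, 210, 205 and 225 CPM in samples 1 to 4. The sets were thus separate by a wide margin in single embryos and by a narrow one in pools of 20, with log2 fold changes of 1.59 and 0.25.

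In single embryos taken alone, 297 features were higher and 268 lower in samples 5 to 8, together 22% of the 2571 tested (edgeR, adjusted p under 0.05 within this batch). Of these 565, 388 differed by more than 2-fold, and the median absolute log2 fold change over all features tested was 0.62. Without sample 4 the number called was 370, of which 363 were among the 565. The features named for the largest rises were features 2299 and 1408, and those for the largest falls features 17 and 1714, of which features 1408 and 1714 were also among the 16 named over the 32 samples. Feature 1408, described above, had a log2 fold change of 3.37 ± 0.40 (edgeR adjusted p = 0.0018) and held in all 11 alternatives. Feature 2299 had 780, 24.4, 21.4 and 461 CPM in samples 5 to 8, against 27.8, 38.2, 35.1 and 22.1 CPM in samples 1 to 4. Samples 5 and 8 were high, sample 6 lay within the range of samples 1 to 4 and sample 7 just below it, so that the fitted 10.5-fold rise (edgeR adjusted p = 0.0305) rested on 2 embryos. Its call was lost without sample 1, 2, 3, 4, 5 or 8, and its log2 fold change over all 32 samples was -0.16. Feature 17 had 0.957, 3.90, 3.45 and 16.2 CPM in samples 5 to 8, against 9.02, 10.6, 275 and 215 CPM in samples 1 to 4, where samples 3 and 4 stood apart. Its call (log2 fold change -4.39 ± 1.18; edgeR adjusted p = 0.0220) was lost without sample 3, 4, 5 or 7, and the sets overlapped. Feature 1714 had 1.2, 2.30, 0.493 and 0 CPM in samples 5 to 8, the last being a count of 0, against 8.78, 11.7, 13.5 and 15.8 CPM in samples 1 to 4. These sets did not overlap, although the call (log2 fold change -3.55 ± 0.96; edgeR adjusted p = 0.0232) was likewise lost without sample 3, 4, 5 or 7.

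In pools of 5 the differences were nearly as large as in single embryos and few passed the test. The median absolute log2 fold change was 0.51, and 46 features were higher and 15 lower in samples 5 to 8, together 2.29% of the 2664 tested (edgeR, adjusted p under 0.05), while 844 had an unadjusted p under 0.05. The calls sat at the edge of the threshold: 59 of the 61 shared the adjusted p of 0.0490, and 126 features were under 0.06 and 511 under 0.1. The count was 1 without sample 1, 2, 4, 7 or 8, 480 without sample 5 and 421 without sample 6. DESeq2 called 522 features, and edgeR with DESeq2's size factors called 2, both lower. Feature 2294, described above, kept its call in all 11 alternatives (edgeR adjusted p = 0.0020). Feature 566 had 422, 3006, 698 and 923 CPM in samples 5 to 8, against 126, 193, 311 and 105 CPM in samples 1 to 4, with sample 6 far above the rest. Its 6.98-fold rise (edgeR adjusted p = 0.0490) lost its call without sample 1, 2, 4, 7 or 8 and with DESeq2's size factors. Feature 2845 had 9.90, 47.3, 12.3 and 15.1 CPM in samples 5 to 8, against 1.64, 2.78, 4.92 and 2.48 CPM in samples 1 to 4, and lost its call in the same settings. The call of feature 2197 in pool5 (2.27 to 7.95 CPM in samples 5 to 8, against 15.4 to 24.6 CPM in samples 1 to 4) was also lost in these settings and without sample 3.

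In pools of 10 the differences were smaller and the replicates closer. The median absolute log2 fold change was 0.22, and 138 features were higher and 173 lower in samples 5 to 8, together 10.4% of the 2997 tested (edgeR, adjusted p under 0.05). Of these, 77 differed by more than 2-fold. The count was 111 without sample 1, 147 without sample 2, 179 without sample 3, 149 without sample 6 and 152 without sample 8. Feature 1810 had 20.3, 21.3, 15.4 and 33.3 CPM in samples 5 to 8, against 5.73, 12.2, 12.4 and 9.78 CPM in samples 1 to 4. All of samples 5 to 8 were higher, by 2.28-fold in the fit (edgeR adjusted p = 0.0128), and the fold changes in pool1, pool5 and pool20 were 2.49, 3.24 and 2.23. Feature 1810 was not called in pool1, pool5 or pool20 alone (edgeR adjusted p = 0.154, 0.0616 and 0.474). Its sets were separate in 2 of the first batches. Feature 2147 had 13.7, 31.8, 35.4 and 47.2 CPM in samples 5 to 8, against 15.7, 15.2, 15.0 and 13.7 CPM in samples 1 to 4. Sample 5 lay at the level of samples 1 to 4 and the other 3 were higher, so that the sets overlapped. The call of feature 2147 (2.19-fold; edgeR adjusted p = 0.0144) was lost without sample 1 or sample 8. In pool20 it ran the other way, with 16.2, 11.7, 13.2 and 11.6 CPM in samples 5 to 8, against 15.2, 31.6, 24.1 and 21.5 CPM in samples 1 to 4 (log2 fold change -0.79, edgeR adjusted p = 0.265).

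In pools of 20 no feature passed the test, 0% of the 2976 tested (edgeR, adjusted p under 0.05). An unadjusted p under 0.05 was reached by 252 features, and DESeq2 called 7. Without sample 3 or sample 7 edgeR called 2 features, and without sample 5 it called 1. The median absolute log2 fold change was 0.13. The largest fitted values were -1.85 and 1.15, and 7 features had an adjusted p under 0.1 against 774 in pool1, 511 in pool5 and 494 in pool10. Feature 2294 was at an edgeR adjusted p of 0.0669 in pool20.

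The size of the difference varied between pool sizes for 420 features, 13.7% of the 3067 tested (edgeR's F test on the pool size by sample set terms, adjusted p under 0.05). Of these, 328 were also called over the 32 samples and 92 were not, where 34.7% of all features tested over the 32 samples were called. Both calls rest on the same samples, so this overlap is not a separate result. Here too each feature had a common spread for all pool sizes. With limma's voom and quality weights, 362 features were called, 272 of them among the 420. With edgeR the count was 633 without sample 5 of pool5 and 648 without sample 6 of pool5. Pool1 and pool5 shared exposure dates and extraction day, although they were separate batches. Between all other pool sizes, pool size goes with exposure dates, and between November and December batches with extraction day too. There, differences between pool sizes and between dates cannot be told apart. Feature 1957 had the smallest p. In pool1 it had 67.7, 59.2, 71.2 and 72.8 CPM in samples 5 to 8, against 11.2, 17.6, 9.37 and 8.94 CPM in samples 1 to 4. In pool20 it had 36, 54, 40.1 and 43.9 CPM in samples 5 to 8, against 40.7, 39.9, 43 and 41.6 CPM in samples 1 to 4. A wide step in single embryos stood against overlapping sets in pools of 20. The log2 fold changes of feature 1957 were 2.52, 2.2, -0.01 and 0.10 in pool1, pool5, pool10 and pool20 (edgeR adjusted p = 1.2e-04). Feature 976 had values of 3.32, 1.44, -0.19 and 0.07 on the same scale (edgeR adjusted p = 8.4e-04). Feature 1158 was lower in pool1, with 257, 329, 276 and 218 CPM in samples 5 to 8, against 547, 513, 442 and 646 CPM in samples 1 to 4. In pool10 the order of its sets was the opposite, with 320, 289, 273 and 283 CPM in samples 5 to 8, against 232, 260, 256 and 261 CPM in samples 1 to 4. The log2 fold changes of feature 1158 were -0.99, -0.55, 0.23 and -0.02 over the 4 pool sizes (edgeR adjusted p for their difference = 0.0010).

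How far the 4 batches shared the difference was described by calling features in 3 of them and reading those features in the batch left out. Of the 566 features called without pool1, 527 were tested in pool1, and 502 of them (95.3%) had the same sign there, against 80.6% of all features tested in both. Their median log2 fold change in pool1, taken in the direction called, was 0.96 against 0.53 over all features. Of the 527, 262 (49.7%) were called in pool1 in the same direction, against 21.7% of all, and 0 in the other. In pool5, 544 of 546 (99.6%) had the same sign, against 82.8% of all, with a median of 0.90 against 0.46. There 52 were called the same way (9.52%, against 2.29% of all). In pool10 the sign held for 746 of 952 (78.4%), against 64.1% of all, with a median of 0.19 against 0.11. In that batch 161 were called the same way (16.9%, against 8.94% of all) and 3 the other way. In pool20 the sign held for 831 of 1028 (80.8%), against 65.9% of all, with a median of 0.11 against 0.059, and none was called in that batch. The 3 features called the other way in pool10 were features 2099, 2191 and 2613, named after their values were seen. Feature 2099 had a log2 fold change of -0.65 in pool10 and 0.82 over the other 3 pool sizes. Feature 2191 had -0.46 in pool10 and 0.55 over the other 3, and feature 2613 had 0.71 in pool10 and -0.64 over the other 3.

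**Figure D3:**
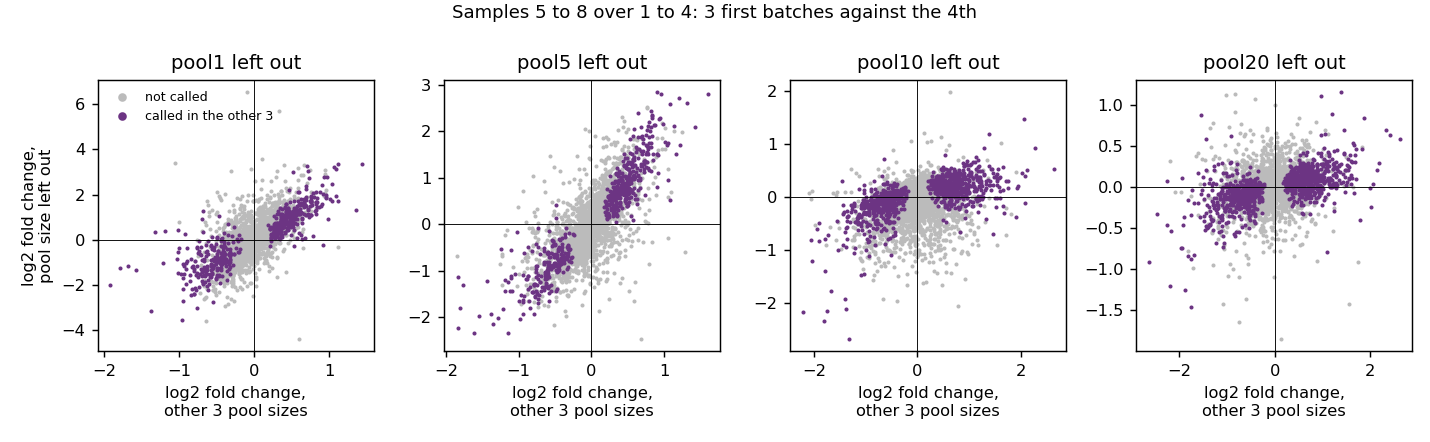
Log2 fold change of samples 5 to 8 over 1 to 4 for each feature, in the batch left out (vertical axis) against the fit of the other 3 first batches (horizontal axis). Purple points were called in the other 3 batches and grey points were not, and each panel has its own scale. Purple points in the pool1 and pool5 panels lay almost wholly in the lower left and upper right, and those in the pool10 and pool20 panels lay closer to the horizontal line.

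Pool1 and pool5, which shared exposure dates and extraction day, were the most alike pair. Of the 564 features called in pool1 and tested in pool5, 562 (99.6%) had the same sign in pool5, against 82.7% of all features tested in both. The 53 features called in both, in the same direction, were 86.9% of the 61 called in pool5 and 9.40% of the 564 called in pool1, where 22% of all features tested were called in pool1 and 2.29% in pool5. Pool10 and pool1 shared 108 called features in the same direction, which is 41.9% of 258 in pool10 and 19.1% of 565 in pool1, and 2 were called in opposite directions, features 2099 and 2299. Pool10 and pool5 shared 24, which is 8.66% of 277 in pool10 and 39.3% of 61 in pool5, where 10.4% of all features tested were called in pool10. Of the 305 features called in pool10 and tested in pool20, 264 had the same sign in pool20 (86.6%), against 63.8% of all features tested in both. These 2 batches shared an extraction day and not an exposure.

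The called features took up different shares of all counts. The 559 higher features made up 32.4% ± 6.11 of counts in samples 5 to 8 of pool1 and 16.2% ± 1.29 in samples 1 to 4 (SD, n = 4 each). In pool5 they made up 30.7% ± 11.2 in samples 5 to 8 and 16.6% ± 1.96 in samples 1 to 4. In pool10 the shares were 25.8% ± 2.76 in samples 5 to 8 and 22.2% ± 0.423 in samples 1 to 4, and in pool20 they were 23.3% ± 1.89 in samples 5 to 8 and 21.7% ± 0.902 in samples 1 to 4. The 489 lower features ran the other way, with 21.6% ± 4.77 in samples 5 to 8 and 37.9% ± 1.43 in samples 1 to 4 of pool1. Their shares in pool20 were 29.4% ± 1.99 in samples 5 to 8 and 31% ± 1.04 in samples 1 to 4. These features were chosen on these samples, so the shares are a description. Since shares of counts sum to a fixed total, a rise of some features lowers the share of others.

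Called features were more often abundant. When the features were cut into 4 equal groups by mean level over the 64 samples of batches 2 and 3, 8.48% of the least abundant group was called, 28.9% and 44.7% of the middle groups, and 56.8% of the most abundant. The differences were not larger in abundant features. The median absolute log2 fold change was 0.39, 0.34, 0.30 and 0.29 from the least to the most abundant group. The median log2 fold change was -0.15 in the least abundant group and between -0.05 and 0.04 in the other 3. The spread within a set, given as the coefficient of variation from the common dispersion that edgeR estimates, was 52.4% in samples 5 to 8 and 48.9% in samples 1 to 4 of pool1. It was 45.2% in samples 5 to 8 and 24.3% in samples 1 to 4 of pool5, where samples 5 to 8 without sample 6 had 25%. In pool10 it was 16.9% in samples 5 to 8 and 14.5% in samples 1 to 4, and in pool20 14.5% in samples 5 to 8 and 12.9% in samples 1 to 4.

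Samples of batches 2 and 3 were then read for the same difference. A score was taken for each sample as the mean log2 CPM of the 559 higher features minus that of the 489 lower features, less the mean of samples 1 to 4 of its own batch. In the first batches, where the features were chosen, samples 5 to 8 scored 2.08, 1.57, 2.36 and 2.92 in pool1, 0.96, 3.33, 1.37 and 1.75 in pool5, 0.51, 0.66, 0.25 and 0.89 in pool10, and 0.08, 0.44, 0.21 and 0.52 in pool20. The highest of samples 1 to 4 in any of these batches was 0.42, and within each batch all of samples 5 to 8 lay above all of samples 1 to 4. With features called in the other 3 batches only, the mean differences were 2.01, 2.01, 0.43 and 0.25 in pool1, pool5, pool10 and pool20.

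**Figure D4:**
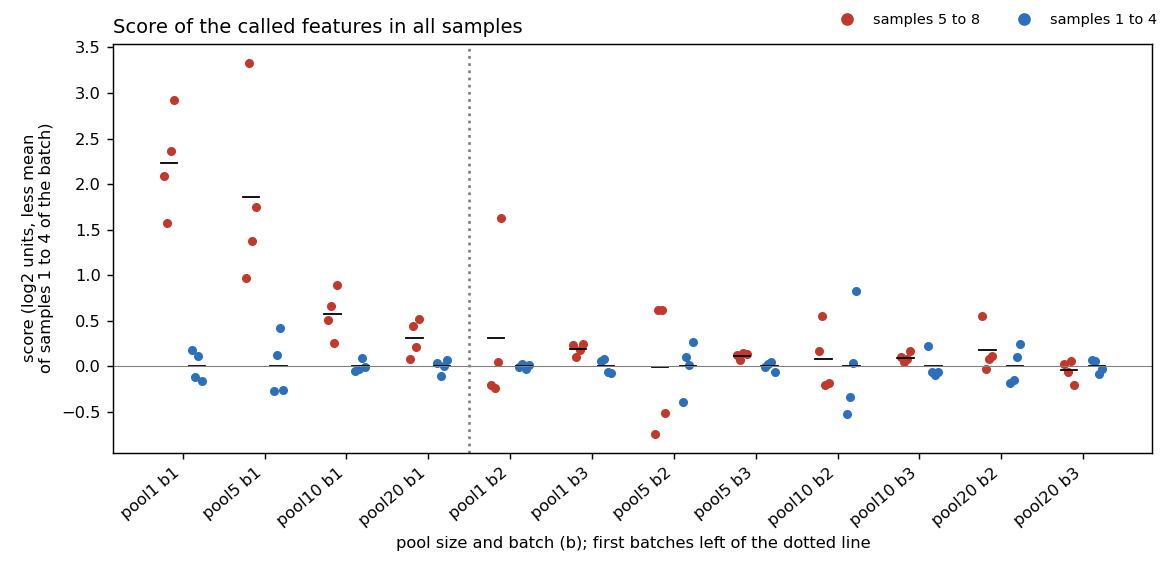
Score of each of the 96 samples (log2 units, less the mean of samples 1 to 4 of the batch), with samples 5 to 8 in red to the left of samples 1 to 4 in blue and a bar at each mean. The first batches stand left of the dotted line, where samples 5 to 8 averaged 2.24, 1.86, 0.58 and 0.31. Right of it the means lay between -0.05 and 0.31, and sample 8 of pool1 batch 2 reached 1.63.

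In the 8 other batches the mean score of samples 5 to 8 differed from that of samples 1 to 4 by -0.05 to 0.31. In pool1 batch 3 the difference was 0.19 and in pool5 batch 3 it was 0.12, and in both the sets did not overlap (exact two-sided permutation p = 0.0286 in each, the smallest possible, adjusted over the 8 batches 0.114). The other 6 batches overlapped, with exact permutation p from 0.286 to 0.943. The largest difference among them, 0.31 in pool1 batch 2, rested on sample 8. That sample scored 1.63, a value between those of samples 6 and 5 in pool1 batch 1, and 88.4% of the 1048 features lay on the same side as in the first batches, where samples 5 to 8 ran from 50.7% to 97.9%. Without it the difference was -0.14. A score above 0.5 was reached by 6 of the 64 samples, all of batch 2. Of these, 5 were numbered 5 to 8 and 1 was numbered 1 to 4, sample 4 of pool10 batch 2 at 0.83. The lowest scores were those of samples 5 and 8 of pool5 batch 2 (-0.74 and -0.52) and sample 1 of pool10 batch 2 (-0.53). Since the score is centred on samples 1 to 4 of the batch, the sets are not measured alike. The 3 batches pool1 batch 2, pool5 batch 2 and pool5 batch 3 had the same exposure dates and extraction day as the first batches of pool1 and pool5, and their differences were 0.31, -0.01 and 0.12.

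Tested feature by feature with batch as a block, 2 of 3090 features differed between samples 5 to 8 and 1 to 4 over these 64 samples, 0.0647% of those tested (edgeR, adjusted p under 0.05). The median absolute log2 fold change was 0.09, and 256 features had an unadjusted p under 0.05. DESeq2 called 6 and limma's voom with quality weights called 57. Both features called by edgeR, 69 and 2692, were lower in samples 5 to 8. Feature 69 had 133, 143, 140 and 136 CPM in samples 5 to 8 of pool20 batch 2, against 155, 156, 150 and 155 CPM in samples 1 to 4. Its log2 fold change was -0.23 ± 0.039 over the 64 samples (edgeR adjusted p = 3.6e-04) and -0.28 ± 0.072 over the 32 of the first batches (adjusted p = 0.0031), and it held in all 77 alternatives for the 64 samples. Feature 69 in pool20 batch 1 had 141, 161, 117 and 144 CPM in samples 5 to 8, against 167, 171, 192 and 180 CPM in samples 1 to 4. It was thus lower in both collections of samples, by a small and similar amount. Feature 2692 (log2 fold change -0.40 ± 0.086, edgeR adjusted p = 0.0281) lost its call in 26 of 77 alternatives.

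Of the 559 features higher in the first batches, 424 had a positive log2 fold change over the 64 samples, with a median of 0.07, and of the 489 lower features 182 were positive, with a median of -0.04. Over all 3016 features tested in both, 1508 were positive and the median was 0.00. Without sample 8 of pool1 batch 2 the counts were 377 of 559, 223 of 489 and 1493 of 3017, and the medians were 0.04, -0.01 and 0.00.

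Feature 2294 was followed through all 12 batches, a choice made after its values were seen. In pool1 batch 3 it had 768, 775, 459 and 474 CPM in samples 5 to 8, against 2154, 2849, 2050 and 1402 CPM in samples 1 to 4. In pool20 batch 2 it had 270, 286, 187 and 132 CPM in samples 5 to 8, against 919, 957, 520 and 430 CPM in samples 1 to 4. Samples 5 to 8 were lower without overlap in these batches and in pool10 batch 3, as in the first batches. In pool5 batch 2 the order was reversed, with 1624, 912, 396 and 373 CPM in samples 5 to 8, against 302, 201, 130 and 95.5 CPM in samples 1 to 4. Within each set of pool5 batch 2 the level also fell with sample number. In pool20 batch 3 it rose with sample number within each set. There samples 1 to 4 ran from 1223 to 2239 CPM and samples 5 to 8 from 934 to 2310 CPM. The levels in pool1 batch 3 were not so ordered, and order within sets was not tested. In pool1 batch 2, samples 5, 6 and 7 had 1772, 1385 and 857 CPM and sample 8 had 176 CPM, against 337, 473, 356 and 290 CPM in samples 1 to 4. The difference of the sets varied between the 8 batches for feature 2294 (edgeR's F test on the batch by sample set terms, adjusted p = 2.9e-05), while its log2 fold change over the 64 samples together was -0.28 ± 0.23 (adjusted p = 0.760).

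**Figure D5:**
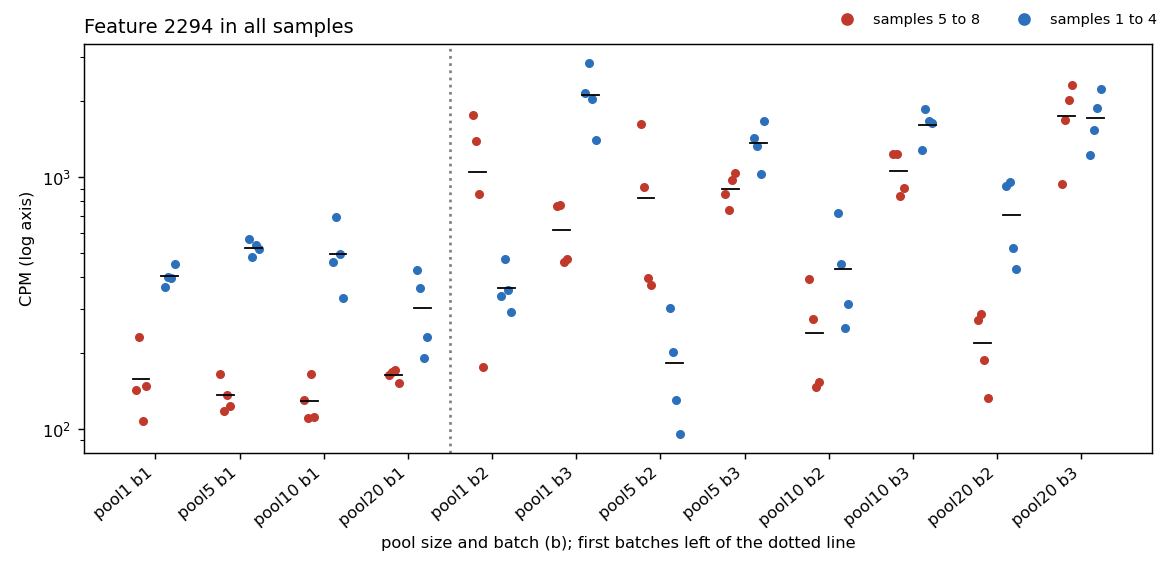
Level of feature 2294 in each of the 96 samples (CPM, log axis), with samples 5 to 8 in red to the left of samples 1 to 4 in blue and a bar at each mean. Samples 5 to 8 lay below samples 1 to 4 without overlap in the 4 first batches and in 3 of the other 8, and above them without overlap in pool5 batch 2.

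Features 622 and 2197 had a like pattern. Feature 622 had 11.9, 57.2, 26.9 and 34.7 CPM in samples 5 to 8 of pool1 batch 3, against 84.5, 144, 154 and 99.1 CPM in samples 1 to 4. In pool5 batch 2 feature 622 had 99.6, 72.5, 26.9 and 14.9 CPM in samples 5 to 8, against 12.7, 9.26, 9.13 and 5.66 CPM in samples 1 to 4. The sets were separate in both, in opposite directions, and in pool5 batch 2 the level also fell with sample number within each set. Over the 8 other batches feature 622 was lower without overlap in 3 and higher without overlap in 1, and feature 2197 was lower in 1 and higher in 1. Of all 3018 features tested over the 32 samples, 0.364% were lower without overlap in at least 3 of these 8 batches and 2.02% were lower in at least 1 and higher in at least 1. The difference varied between the 8 batches for feature 622 (edgeR adjusted p = 5.0e-05) and feature 2197 (edgeR adjusted p = 0.0026). A difference of the sets that varied between the 8 batches was called for 57 of 3127 features (1.82%), of which 27 were among the 1048 called in the first batches (2.58% of them).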

How the data were processed

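Per the labels' protocols, total RNA of whole embryos was taken through the TempO-Seq S1500+ Zebrafish Surrogate panel and sequenced on an Illumina instrument. The authors deposited a table of raw counts per feature, whole numbers with no normalization, with 3183 rows and 96 sample columns, and 0 columns were left unused. Tools named, per the submitters' processing notes, include STAR 2.7.10a, RSEM 1.3.3 with fastp 0.23.2 and bcl2fastq 2.20, and also DESeq2 1.31.15; no role is stated for them. Genome build and counting step: not given in the sources used here. Reads carry no molecular identifiers, so the limit for a count of 0 covers counting error only.

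Groups came from the pool size, batch and sample number in the titles. Counts were tested in R 4.3.3 with edgeR 4.0.16 (filterByExpr, TMM scaling, quasi-likelihood F test, Benjamini-Hochberg, threshold 0.05), with pool size (first batches) or batch (64 others) as a block and each batch also alone. Standard errors are the absolute log2 fold change divided by the square root of F. Levels are TMM-scaled CPM over all 96 samples, and scores use a prior count of 2. Score differences in the 8 other batches and library properties had exact two-sided permutation tests. Named features, from at least 10 CPM on average over the 32 samples, were the 8 highest and 8 lowest fold changes among those called with 1 sign in 4 pool sizes, 2 higher and 2 lower called in each batch alone and in the 64 samples, and the 4 with the smallest p between pool sizes. The comparison, lists and tests were chosen with earlier results of these data known. The fitting code was tested on simulated data. Alternatives were DESeq2 1.42.0, its size factors in edgeR, limma 3.58.1 voom with quality weights, no filter, other scores, left-out samples and batches, thinned counts, and sample number as a replicate block; 2 were added after the data were seen, the batch by sample set terms over the 8 other batches and the fit of pools of 10 and 20 only.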

Additional observations from a re-analysis of the deposited data

Results flagged for a closer look

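Sets of 4 samples were checked for a value far from the other 3. The same sets were checked in several measures or features, so the checks are not independent. Of the 242 checks, 20 found such a value, 10 among samples 5 to 8 and 10 among samples 1 to 4, where chance gives about 5%. Sample 6 of pool5 batch 1 had 4 of these: its 10 most abundant features took 35.7% of counts, and it had 2157 CPM of feature 1406, 52 CPM of feature 707 and 47.3 CPM of feature 2845, each the highest of samples 5 to 8. Sample 8 of pool5 batch 1 had 55.5 CPM of feature 847. Sample 8 of pool1 batch 1 had 29.6% of counts in the 10 most abundant features. Sample 6 of pool10 batch 1 had a total of 5532750 counts, against 4330988 to 4407338 in samples 5, 7 and 8, and 6.63 CPM of feature 2197. Sample 7 of pool10 batch 1 had 23.8 CPM of feature 1998. Sample 8 of pool1 batch 2 had a score of 1.63, against -0.24 to 0.05 in samples 5 to 7.

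Among samples 1 to 4, sample 1 of pool1 batch 1 had 26.3% of counts in the 10 most abundant features and 820 CPM of feature 1408. Sample 3 of pool5 batch 1 had 13.6 CPM of feature 847 and 21.4 CPM of feature 100. Sample 3 of pool20 batch 1 had 27.2 CPM of feature 100, sample 2 of that batch 29.2 CPM of feature 966, and sample 4 a low 17.5 CPM of feature 1998. Sample 1 of pool10 batch 1 had a low 232 CPM of feature 1158. In the other batches, sample 1 of pool10 batch 3 had a score of 0.23 and sample 1 of pool5 batch 3 had 299.8 CPM of feature 69.

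The difference of samples 5 to 8 from 1 to 4 varied between pool sizes for 420 features, 17 of them among the named (edgeR's F test on the pool size by sample set terms). Their adjusted p was 1.2e-04 for feature 1957, 8.4e-04 for feature 976, 0.0010 for feature 1158, 0.0011 for features 1408 and 566, 0.0013 for feature 847 and 0.0016 for feature 1406. It was 0.0079 for feature 1714, 0.0081 for feature 2299, 0.0185 for feature 1448, 0.0222 for feature 966, 0.0226 for feature 2845 and 0.0234 for feature 17. It was 0.0284 for feature 436, 0.0325 for feature 100, 0.0399 for feature 1998 and 0.0435 for feature 2294. Log2 fold changes in pool1 and pool20 were 2.89 and -0.01 for feature 566, and -2.18 and -0.36 for feature 436.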

How the results depend on the processing

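Over the 32 samples the number of called features was 674 with limma's voom and quality weights, 566 without pool1, 552 without pool5 and 282 with pools of 10 and 20 only, against 1048. It was 979 with sample number as a replicate block (961 of them among the 1048), and 953 to 1252 under the other settings. In pool5 it was 522 with DESeq2 and 2 with DESeq2's size factors in edgeR, against 61. DESeq2 called 7 in pool20, 688 between pool sizes and 6 over the 64 other samples. Over those 64, voom called 57, edgeR 1 without pool1 batch 3, pool5 batch 3 or pool20 batch 3, 57 for the batch by sample set terms, and 3 with the replicate block. Fits leaving out batches hold fewer samples, among them those without pool10 and pool20, which called 953 and 1033 features over the first batches. The cause of these changes was not tested. Scores of the 100 features with the smallest p gave 1.25 in pool10 and 0.60 in pool20, and weighting all features gave 0.045 in pool20 batch 3, where the sign reversed.

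Leaving out each sample gave 914 to 1079 calls over the 32 samples, between 370 and 671 in pool1, between 1 and 480 in pool5, between 111 and 426 in pool10, at most 2 and at least 0 in pool20, 300.0 to 648 between pool sizes and 1 to 6 over the 64. Over the 64, 6 were called without sample 6 of pool5 batch 2, 4 without sample 5 of pool1 batch 2, and 1 without any of 21 other samples. Score differences ran from 2.01 to 2.46 in pool1 batch 1, 1.36 to 2.15 in pool5 batch 1, 0.47 to 0.69 in pool10 batch 1 and 0.25 to 0.39 in pool20 batch 1. They ran from -0.14 to 0.49 in pool1 batch 2, 0.17 to 0.22 in pool1 batch 3, -0.21 to 0.24 in pool5 batch 2, 0.10 to 0.13 in pool5 batch 3, -0.10 to 0.36 in pool10 batch 2, 0.06 to 0.17 in pool10 batch 3, 0.05 to 0.26 in pool20 batch 2 and -0.081 to 0.0070 in pool20 batch 3. The sign reversed without sample 1, 2 or 6 of pool10 batch 2 (-0.10, -0.03 and -0.08), without sample 8 of pool20 batch 3 (0.0070) or pool1 batch 2 (-0.14), and without sample 2, 4, 5 or 8 of pool5 batch 2 (0.03, 0.09, 0.24 and 0.17). Of 34 results for named features, 18 held in every setting and none reversed, with 70 of 1150 alternatives losing a call. Sample numbers did not pair samples: deviations of same-numbered samples correlated at -0.29 to 0.17 over 48 pairs across pool sizes, with a median of 0.02 and 6 over 0.1.

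With 4 samples a set, 1 sample can decide the counts in pool5, pool10 and pool20, and in pool1 the count was 370 without sample 4, against 565. Features near 0.9 CPM or below are not told from 0 in the smallest library.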

Other observations

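Samples 5 to 8 of the first batches also differed among themselves in how far they departed from samples 1 to 4. The 1048 called features and their called side were chosen on these samples, so high shares in samples 5 to 8 of the first batches are partly set by that choice. In pool1, between 94.1% and 97.1% of the 1048 called features lay on the called side of the mean of samples 1 to 4 in each of samples 5 to 8. In pool5 the share ran from 89.7% in sample 5 to 97.9% in sample 8. In pool10 it was 63.1% in sample 7 and 93.1% in sample 8, and in pool20 50.7% in sample 5 and 87.8% in sample 8. In every batch, a sample numbered 1 to 4 was read against the mean of the others of its set, so its share is not measured alike. Among samples 1 to 4 of the first batches, sample 3 of pool5 had 79.5%. In the other batches the 5 highest were 88.4% in sample 8 of pool1 batch 2, 87% in sample 5 of pool20 batch 2, 84.7% in sample 4 of pool10 batch 2, 84.3% in sample 6 of pool10 batch 2 and 83.1% in sample 7 of pool5 batch 2, and the lowest share was 12.8%.

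Taken alone, pool20 batch 2 was the only one of the 8 other batches with called features, 26 of 3037, all of them lower in samples 5 to 8 (edgeR, adjusted p under 0.05), and 357 had an unadjusted p under 0.05. In the other 7 batches 0 features were called and between 116 and 261 had an unadjusted p under 0.05. DESeq2 was not run on these batches alone. Of the 13 features separate in all 4 first batches, features 318, 326, 562, 1183, 1681, 2698 and 2959 were separate in none of the 8 other batches, as were 72.1% of all 3018 features tested. Feature 130 was lower without overlap in 2 of them (1.99% of all features were so in at least 2), and features 2200 and 2945 in 1 each. Feature 569 was higher without overlap in 1. Of all features tested, 16% were lower without overlap in at least 1 of these batches and 13.9% were higher in at least 1.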
